A study of Mus musculus with 5 samples.

Results

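The MS4A genes encode a family of membrane proteins, and 10 of them (Ms4a1, Ms4a3, Ms4a4b, Ms4a4c, Ms4a4d, Ms4a6b, Ms4a6c, Ms4a6d, Ms4a7 and Ms4a8a) were followed in RNA from mouse thymic dendritic cells. They were taken by symbol from a table of 18051 genes. The family was chosen by its log2 fold changes and calls between these same libraries, so the differences of its members are given as a description and are not tested. Cells came from C57BL/6J mice aged 6 to 8 weeks. One group was untreated (2 libraries), and the other was harvested 4 days after total body irradiation (TBI, 3 libraries). In both groups digested thymi had been pooled, and the sort had kept cells with CD45, MHC class II and CD11c on their surface. A gate of this kind also admits macrophages and other leukocytes that carry these surface proteins. The labels do not say whether replicates came from separate pools of thymi, so errors measure only the spread between these libraries.

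MS4A proteins span the membrane several times with both ends inside the cell, and most act as partners of receptors or channels in immune cells. CD20 (Ms4a1) is the B cell member and the target of therapeutic antibodies. Ms4a2 encodes the beta chain of the high-affinity IgE receptor of mast cells and basophils, Ms4a3 is active in precursors of granulocytes and monocytes, Ms4a4b associates with the T cell receptor GITR, and Ms4a7 marks macrophages. Ms4a8a is known from alternatively activated macrophages, and Ms4a6d has been described as a partner of the macrophage receptor VSIG4.

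The 10 genes lie in a cluster on chromosome 19. In GRCm38, the build also called mm10, they extend from 11067471 to 11640851, a span of 573.4 kb, in the order Ms4a8a, Ms4a1, Ms4a7, Ms4a4c, Ms4a4b, Ms4a6c, Ms4a6b, Ms4a4d, Ms4a6d and Ms4a3. All are annotated as protein coding. Ms4a8a, Ms4a1, Ms4a7, Ms4a6d and Ms4a3 are on the minus strand and the other 5 on the plus strand. Their coding sequences fall into recent copies and older relatives. Ms4a4c and Ms4a4b were 91.7% identical over their coding sequences, Ms4a4c and Ms4a4d 85.4%, Ms4a4b and Ms4a4d 83.2%, Ms4a6b and Ms4a6d 79.4%, Ms4a6c and Ms4a6b 73.7% and Ms4a6c and Ms4a6d 66.8%. Every other pair was at 49.3% or less. In the closest pair in sequence, Ms4a4b and Ms4a4c, the count ratio differed between the groups. There were 0.391 and 0.412 Ms4a4b counts per Ms4a4c count in the untreated libraries and 3.63, 4.14 and 3.72 in the TBI libraries. Annotated exons cover 8780 and 1751 bases, so these ratios compare the groups and not the levels of the genes. Per kilobase of these exons, means were 3.13 and 39.3 CPM in untreated and 34.2 and 45.1 CPM in TBI libraries. The order in TBI libraries depends on the length used.

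**Figure D1:**
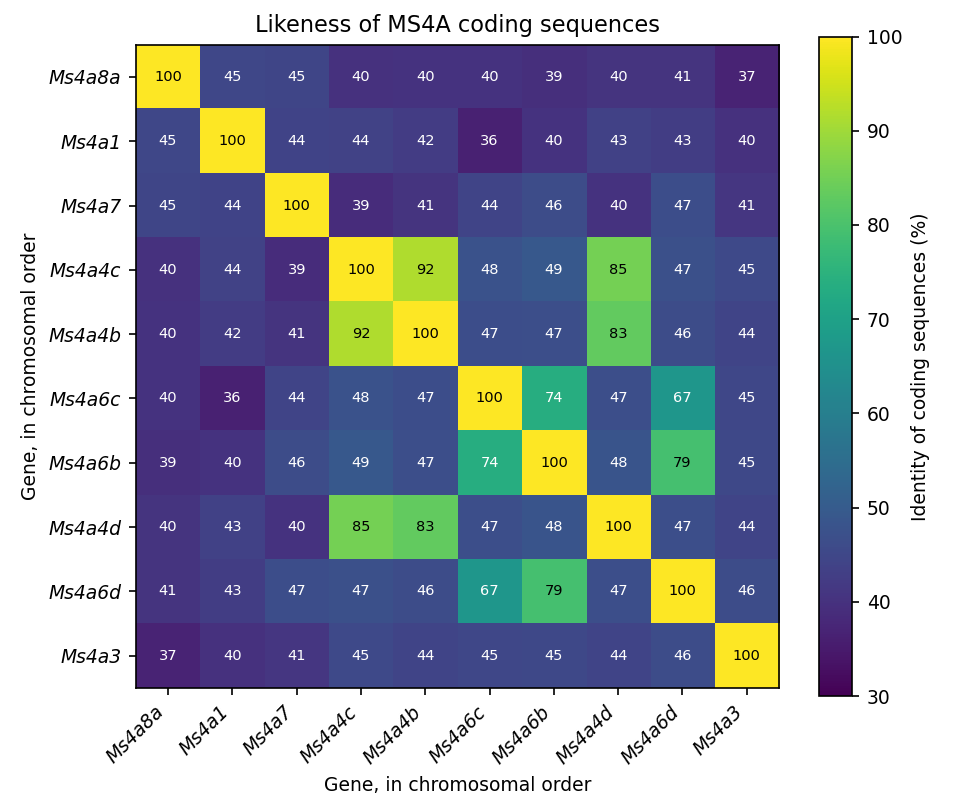
Identity of coding sequences (percent, colour and number) for every pair of the 10 genes, with both axes in chromosomal order. The Ms4a4 genes form one bright block (83.2% to 91.7%) and the Ms4a6 genes another (66.8% to 79.4%).

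Near-identical copies can share reads, so the overlap of their transcripts was counted. Of the 50-base words in one annotated transcript per gene, 8.48% of those in Ms4a4c, 2.85% in Ms4a4b, 6.08% in Ms4a6c, 5.66% in Ms4a6b, 2.92% in Ms4a6d and 0.55% in Ms4a4d also occurred in a transcript of another member. No such word was found in Ms4a1, Ms4a3, Ms4a7 or Ms4a8a. Ms4a6c overlaps the antisense gene BE692007, which holds 55.41% of its words. The strand setting of the counting is not given in the sources used here, so reads of Ms4a6c and BE692007 cannot be told apart. Antisense genes also overlap exons of Ms4a4c (Gm5692) and Ms4a6b (Gm19261). Values of Ms4a4 and Ms4a6 genes carry this uncertainty.

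Sequences before the start sites are shown for Ms4a4b and Ms4a4c and for Ms4a8a. The pair was most alike in coding sequence while its count ratio differed between the groups, and Ms4a8a differed most between the groups. They are RefSeq windows of GRCm38.p6 read in the direction of the gene, up to 250 bases before its RefSeq start and without annotated exon bases. The Ms4a4b stretch is chr19:11443308-11443552 (plus strand), the Ms4a4c stretch chr19:11407411-11407660 (plus strand) and the Ms4a8a stretch chr19:11081104-11081353 (minus strand). Capitals mark GAGGAA, a core of sites for the myeloid and lymphoid factor PU.1, in the Ms4a4 pair and TGANTCA, the AP-1 motif, in Ms4a8a.
Ms4a4b: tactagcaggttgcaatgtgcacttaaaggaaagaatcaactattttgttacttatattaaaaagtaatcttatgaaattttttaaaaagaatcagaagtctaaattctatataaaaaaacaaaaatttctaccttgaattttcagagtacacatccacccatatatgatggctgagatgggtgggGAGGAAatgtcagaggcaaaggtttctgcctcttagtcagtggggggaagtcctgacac
Ms4a4c: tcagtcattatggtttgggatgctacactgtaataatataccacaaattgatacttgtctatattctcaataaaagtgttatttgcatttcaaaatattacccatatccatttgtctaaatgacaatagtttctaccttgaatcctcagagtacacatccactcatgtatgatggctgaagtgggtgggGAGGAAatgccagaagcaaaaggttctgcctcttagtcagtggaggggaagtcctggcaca
Ms4a8a: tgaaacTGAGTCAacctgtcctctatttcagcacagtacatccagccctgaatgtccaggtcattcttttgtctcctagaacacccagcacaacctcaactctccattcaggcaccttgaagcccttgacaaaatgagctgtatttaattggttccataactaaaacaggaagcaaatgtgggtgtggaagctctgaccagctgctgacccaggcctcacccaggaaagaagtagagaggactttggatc
The Ms4a4b and Ms4a4c windows each held 1 GAGGAA, which began 64 and 61 bases before the RefSeq start. In the GENCODE models used for the gene spans, Ms4a4c starts at 11404770, so its window lies inside that span. The local alignment of the windows ran over 251 columns with 73.3% identity, and the longest identical run was 20 bases. GAGGAA occurred on either strand in 23.3% of 32851 RefSeq promoter windows of the same length, and TGANTCA in 6.7%. The other motifs searched on both strands were AGGAAGT (ETS, 7.7% of all windows), TTNCNNAA (C/EBP, 36.8%), the ETS-IRF composite element (2.3%) and the interferon-stimulated response element (3.0%). AGGAAGT and GAGGAA can overlap in AGGAA, and the other motifs can overlap as well. AGGAAGT was present in the windows of Ms4a6b (2 matches) and Ms4a6c (1 match). Their windows shared an identical run of 48 bases, which began 118 bases before the RefSeq start of Ms4a6b and 49 before that of Ms4a6c. The Ms4a6b window begins at 11518309, also inside the GENCODE span of its gene, which starts at 11516512. The composite and interferon elements matched 0 of the 9 windows held for 8 members, and TTNCNNAA matched all 9. A second window of Ms4a7 also had 1 TGANTCA. These matches describe letters and not binding.

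The libraries held 7227000 to 8428589 counts, and 1 count equalled 0.123 to 0.145 CPM, counts scaled to a common library total, with TMM-scaled library sizes, a scaling that sets the bulk of genes level between libraries. On the second principal component TBI replicate 1 scored -48.83, away from the 34.48 and 21.61 of its group, and without this library 7 members still passed as higher. Of 12 markers of the sort and of dendritic cells 8 were lower after TBI, 1 (Cd209a) was higher and 3 did not pass, and none was at 0. Without untreated replicate 2 there were 0 higher, and without TBI replicate 1 there were 2. Itgax, which encodes CD11c, had 312 CPM in untreated and 203 CPM in TBI libraries (mean), while Flt3, the growth factor receptor of dendritic cells, fell from 328 to 36.9 CPM. The chemokine receptor Xcr1 of cross-presenting dendritic cells (-2.84 ± 0.14) and the factor Irf8 (-2.01 ± 0.14) fell as well. All 18 macrophage markers rose, and their summed level was 3208 to 3823 CPM in untreated and 25534 to 28089 CPM in TBI libraries. In bulk RNA, a change in the number of cells of one type and a change of RNA per cell cannot be told apart, which holds for each result below.

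MS4A transcripts were more abundant after TBI as a group. The 10 genes together took 0.0454% and 0.0369% of all counts in the untreated libraries and 0.144%, 0.135% and 0.138% in the TBI libraries. Summed levels were 411 and 337 CPM against 1570, 1438 and 1432 CPM, so the groups lay apart. Low counts kept Ms4a3 and Ms4a4d out of the fit across all genes. Of the 8 members that entered it, 7 passed an adjusted p of 0.05 (edgeR) as higher in TBI libraries, 0 as lower, and Ms4a4c did not pass. Over all 12046 genes tested, 13.3% passed as higher and 9.79% as lower, 23.1% together. Members in the fit had a median log2 fold change of 2.35, against -0.01 over all tested genes. Among the 8 members in the fit, library values did not overlap between the groups for 7 in the higher direction and 0 in the lower. The shares of all tested genes were 27.8% and 28.3%. Ms4a3, which is outside the fit, did not overlap in the lower direction. These counts follow from how the family was chosen and support nothing further.

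**Figure D2:**
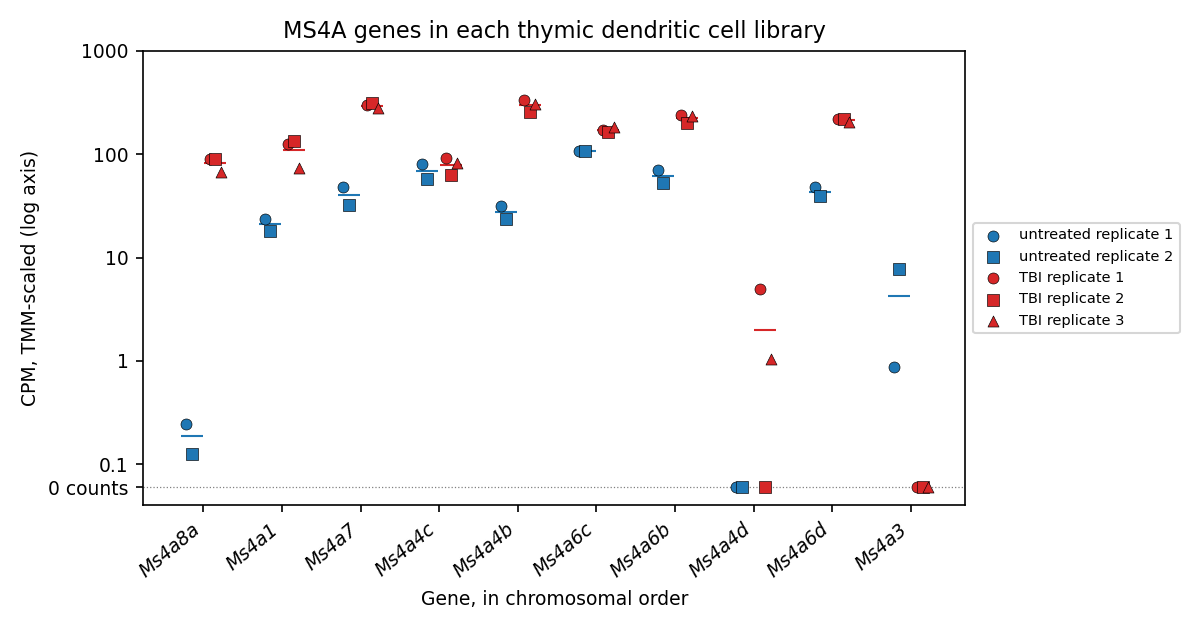
CPM (TMM-scaled, log axis) of each MS4A gene in each of the 5 libraries, in chromosomal order, with blue for untreated and red for TBI libraries. Symbols give the replicate, horizontal lines the group mean, and points on the dotted line are at 0 counts. Ms4a4c is the well-counted gene whose groups overlap, and Ms4a8a has the widest gap.

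Ms4a8a was nearly absent from untreated cells. It had 2 and 1 counts in the untreated libraries and 624, 709 and 519 in the TBI libraries. In CPM these were 0.247 and 0.126 against 90.2, 89.8 and 67.8. Every TBI library lay far above both untreated libraries. The ratio of counts per scaled library was 439.8, with a 95% counting interval of 150.3 to 2135 that covers counting error at most. It was 651.8 (116.8 to 25758) without untreated replicate 1 and 333.9 (92.3 to 2759) without untreated replicate 2.

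Ms4a7, the macrophage member, measured 47.6 and 32.0 CPM in untreated libraries and 296, 310 and 280 CPM in TBI libraries. The TBI libraries were close to each other, and all stood above the untreated ones. The means were 39.8 ± 11.1 and 295 ± 14.8 CPM (SD, n = 2 and n = 3), 7.42-fold apart, with a log2 fold change of 2.89 ± 0.20 (SE).

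Ms4a6d, the VSIG4 partner, measured 47.8 and 39.2 CPM in untreated libraries and 220, 219 and 206 CPM in TBI libraries. Again no library crossed between the groups, and the TBI spread was small. Its log2 fold change was 2.30 ± 0.15, or 4.94-fold between means of 43.5 ± 6.06 and 215 ± 7.66 CPM. Vsig4 itself, a complement receptor of resident macrophages, rose from 14 and 0 counts to 289, 846 and 661 counts (6.46 ± 0.78).

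The sister genes Ms4a6b and Ms4a6c differed by less. Ms4a6b measured 70.7 and 53.1 CPM in untreated and 238, 202 and 234 CPM in TBI libraries, a log2 fold change of 1.86 ± 0.17. Ms4a6c was at 108 and 106 CPM in untreated and 170, 165 and 182 CPM in TBI libraries, with a log2 fold change of 0.68 ± 0.13. Both genes were higher in each TBI library than in either untreated library, Ms4a6c by the smaller margin. Ms4a6c did not pass without untreated replicate 1 (edgeR adjusted p = 0.0989) or without untreated replicate 2 (0.116). Within libraries, Ms4a6d counts per Ms4a6c count went from 0.441 and 0.369 to 1.29, 1.33 and 1.14, and Ms4a6b counts per Ms4a6c count from 0.653 and 0.499 to 1.40, 1.22 and 1.29. These ratios do not depend on the scaling between libraries.

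Ms4a1, which encodes CD20, measured 23.8 and 18.2 CPM in untreated libraries and 125, 133 and 72.6 CPM in TBI libraries. TBI replicate 3 was the lowest of its group and still stood above both untreated libraries. The log2 fold change was 2.39 ± 0.30. Of 12 B cell markers (Ms4a1 not among them) 10 entered the fit, of which 6 were higher, 2 (Fcrla and Cr2) lower and 2 did not pass (median 1.30). The number lower was 1 without TBI replicate 2. It was 3 with upper quartile scaling, library size alone, DESeq2 or limma-voom, and without TBI replicate 1. Fcer2a, which did not pass, had 63 and 51 counts in untreated libraries and 0, 14 and 12 in TBI libraries. Their summed level was 224 to 225 CPM in untreated and 300 to 423 CPM in TBI libraries. Cd79a and Cd79b, which carry the signal of the B cell receptor, rose (2.44 ± 0.29 and 1.43 ± 0.19). Pax5, the B lineage transcription factor, had 0 counts in the untreated libraries and 4, 2 and 1 in the TBI libraries. Ms4a1 and Cd79a counts kept a nearly fixed ratio, 1.14 and 1.17 in untreated and 1.08, 1.17 and 1.07 in TBI libraries, a pair chosen after its values were seen. The part of B cells in the level of Ms4a1 was not tested.

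Ms4a4b, the GITR-associated member, measured 31.5 and 23.5 CPM in untreated libraries and 335, 258 and 307 CPM in TBI libraries. The groups were widely apart. Its log2 fold change of 3.45 ± 0.20, or 10.9-fold between means of 27.5 ± 5.62 and 300 ± 38.8 CPM, was the second largest among members in the fit. GITR itself, encoded by Tnfrsf18, rose from 413 and 481 counts to 1016, 775 and 878 counts (1.10 ± 0.20). T cell and natural killer (NK) cell markers are given beside it, since T cells are a known source of Ms4a4b. Of 13 T cell markers 7 were lower, 2 (Thy1 and Cd3g) higher (0 without either untreated library, 1 without TBI replicate 3, with upper quartile scaling or with library size alone) and 4 did not pass, with a summed level of 2781 to 3174 CPM in untreated and 1774 to 1952 CPM in TBI libraries. Cd8a (-2.54 ± 0.23), Cd5 (-1.75 ± 0.19) and Cd8b1 (-2.06 ± 0.24) fell, and Cd3e, a core chain of the T cell receptor complex, measured 186 and 187 CPM (means). Among 8 NK cell markers 7 were higher, 0 lower and 1 (Klrd1) did not pass, with a summed level of 87.4 to 89.6 CPM in untreated and 935 to 1163 CPM in TBI libraries. The granzymes Gzmb (5.35 ± 0.21) and Gzma (4.07 ± 0.23) and the granule protein Nkg7 (4.54 ± 0.31) had the lowest p of them, and the receptor Ncr1 rose by 5.30 ± 0.57. The part of either cell type in the level of Ms4a4b was not tested.

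Ms4a4c, its closest copy, was the exception. It measured 80.6 and 57.0 CPM in untreated libraries and 92.3, 62.3 and 82.4 CPM in TBI libraries. The groups overlapped, since untreated replicate 1 lay above TBI replicate 2. The log2 fold change was 0.20 ± 0.22, smaller than its error, and it was -0.03 with library size alone, -0.03 without untreated replicate 2, 0.47 without untreated replicate 1, 0.34 without TBI replicate 2 and 0.07 without TBI replicate 1. None of these passed. Whether the difference of Ms4a4c is smaller than that of Ms4a4b was not tested, and the count ratio given above separates the groups without a scaling.

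Ms4a3 and Ms4a4d were at or near 0 in several libraries. Ms4a3 had 7 and 61 counts in the untreated libraries and 0 in every TBI library. Its level was at least 10.7-fold lower after TBI against a floor of 3 counts per library, at least 19.2-fold without untreated replicate 1 and at least 2.15-fold without untreated replicate 2. Untreated replicate 2 therefore carried most of its counts. Granule genes of the precursors were also uneven between the untreated libraries. Mpo, the myeloperoxidase, had 67 and 872 untreated counts, Ctsg (cathepsin G) 18 and 53, and Elane, the neutrophil elastase, 0 and 216, with 0 in every TBI library for each. Others of the list had counts in TBI libraries: Prtn3 (proteinase 3) had 1 and 59 untreated counts and 83, 75 and 72 in TBI libraries, Ngp 0 and 603 and then 716, 0 and 98, and Ltf (lactoferrin) 1 and 333 and then 330, 33 and 33. Of 10 granulocyte precursor markers 8 entered the fit, of which 3 (Mpo, Ctsg and Gfi1) were lower, 0 higher and 5 did not pass. Without untreated replicate 2, 1 was lower and 1 higher, and with a stricter low-count filter 1 was lower. Their summed level was 43.1 and 323 CPM in the untreated libraries and 21.4 to 184 CPM in TBI libraries. Their part in Ms4a3 was not tested. Ms4a4d had 0 counts in both untreated libraries and 34, 0 and 8 in TBI libraries. Its mean over the TBI libraries was 5.30-fold the same floor, but 1.39-fold without TBI replicate 1, which held most of its counts. TBI replicate 2 had 0 counts, as both untreated libraries did, so the groups overlapped.

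Per kilobase of annotated exon, the order of the members changed between the groups. In untreated libraries Ms4a6c was first at 52.4 ± 0.70 CPM per kb (SD, n = 2), followed by Ms4a4c at 39.3 ± 9.52, Ms4a6d at 25.1 ± 3.49, Ms4a6b at 13.8 ± 2.78 and Ms4a7 at 8.94 ± 2.48. Below these came Ms4a1 at 3.40 ± 0.64, Ms4a4b at 3.13 ± 0.64 and Ms4a3 at 2.28 ± 2.57 CPM per kb, whose library values overlapped between neighbours in that order, then Ms4a8a at 0.104 ± 0.047 CPM per kb and Ms4a4d at 0. In TBI libraries Ms4a6d was first at 124 ± 4.42 CPM per kb (SD, n = 3), followed by Ms4a6c at 83.9 ± 4.21, Ms4a7 at 66.3 ± 3.33 and Ms4a6b at 50.1 ± 4.43. Ms4a8a at 46.0 ± 7.14, Ms4a4c at 45.1 ± 8.75 and Ms4a4b at 34.2 ± 4.42 CPM per kb came next, and from Ms4a6b to Ms4a4b each overlapped the next. Ms4a1 at 17.8 ± 5.31 and Ms4a4d at 1.31 ± 1.71 CPM per kb were lower than these in every TBI library. The length used decides part of this order. The length of a single transcript in place of all annotated exons put Ms4a7 first in TBI libraries at 187.3 CPM per kb. Ms4a6d at 151.6 and Ms4a6c at 93.4 followed. With this length Ms4a4b (63.1) was also ahead of Ms4a4c (45.9) in TBI libraries, and Ms4a7 (25.3) ahead of Ms4a6b (23.1) in untreated libraries.

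As a share of the family's summed CPM per kb, which no scaling between libraries touches, Ms4a6c went from 32.9% and 38.2% in untreated libraries to 16.8%, 17.6% and 19.5% in TBI libraries. Ms4a4c went from 28.6% and 23.97% to 10.7%, 7.78% and 10.4%. Both shares were thus lower in every TBI library, although the level of Ms4a6c was higher. Ms4a6d took 17.1% and 16.6% and then 25.7%, 27.6% and 26.1%. Ms4a7 took 6.65% and 5.29% and then 13.5%, 15.2% and 13.8%, and Ms4a8a 0.085% and 0.052% and then 10.2%, 10.9% and 8.31% in TBI libraries. Ms4a6b kept a similar share, 8.72% to 9.80% in untreated and 9.83% to 11.5% in TBI libraries. These shares depend on the length used. With single-transcript lengths Ms4a7 took 14.3% and 11.5% in untreated and 24.2%, 26.8% and 25.1% in TBI libraries, and Ms4a6c 27.8% and 32.6% and then 11.9%, 12.2% and 13.9%.

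**Figure D3:**
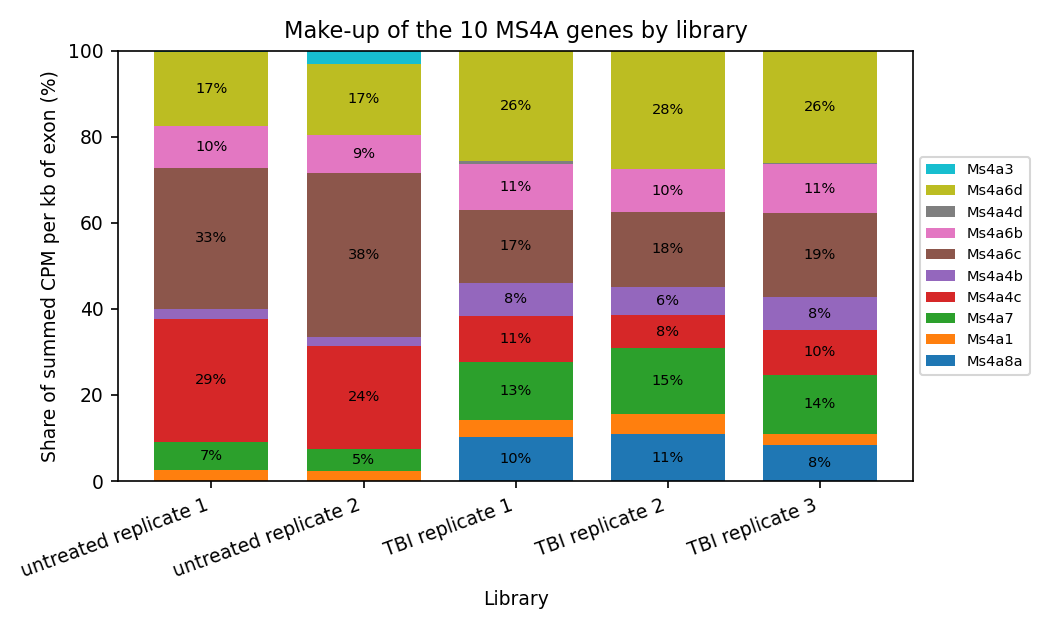
Share of each MS4A gene in the summed CPM per kb of exon of the 10 genes (percent, stacked to 100), one bar per library, with shares of 5% or more printed. Ms4a6c and Ms4a4c make up most of the untreated bars, and Ms4a6d and Ms4a7 widen in the TBI bars, where Ms4a8a appears.

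Of 10 genes that MS4A proteins are known to work with or near, 5 were higher, 0 lower and 5 did not pass, and their median was 0.46. Trem2, a lipid receptor of macrophages whose soluble form is linked to human MS4A variants, rose from 35 and 27 counts to 360, 461 and 519 counts (3.93 ± 0.25). Fcer1g, the shared gamma chain of Fc receptors, went from 283 to 1016 CPM (1.84 ± 0.15) and the tetraspanin Cd81 from 437 to 1002 CPM (1.20 ± 0.15). Clec7a, which encodes Dectin-1 and associates with human MS4A4A, changed by 0.49 ± 0.14, and its call was lost with upper quartile scaling, with library size alone and without either untreated library or TBI replicate 2. Tyrobp, the signalling adaptor of TREM2, had 0.42 ± 0.15 and did not pass, nor did the kinases Syk and Lyn, the receptor Cd40 or the phosphatase gene Cdkn3, whose product binds that of Ms4a3 in human cells. Tyrobp passed with the replicate block (edgeR adjusted p = 0.0428) and without TBI replicate 1 (0.0335). Without untreated replicate 1 only 3 of the 10 were higher, and without TBI replicate 1 there was 1 lower.

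Macrophage markers rose beside Ms4a7, Ms4a6d and Ms4a8a, while monocyte markers went both ways. All 18 macrophage markers passed as higher, with a median of 3.03. Those with the lowest p were the perivascular macrophage genes Lyve1 (7.94 ± 0.29) and Folr2 (7.83 ± 0.33) and the lipopolysaccharide co-receptor Cd14 (4.10 ± 0.19). Of 11 monocyte markers 10 entered the fit, 4 higher and 4 lower, with a median of 0.41. Their summed level was 3287 to 3764 CPM in untreated and 29749 to 35092 CPM in TBI libraries. Most of this sum was Lyz2, the myeloid lysozyme, at 1681 to 2159 CPM in untreated and 23935 to 31750 CPM in TBI libraries. Lyz2 (3.85 ± 0.18), F13a1 (5.20 ± 0.31) and fibronectin (Fn1, 6.19 ± 0.42) rose. Treml4, Plac8 and Ly6c2, the antigen of classical monocytes, were among those that fell. Without either untreated library 2 monocyte markers were lower. Type I interferon targets split into 4 higher and 2 lower of 10, with a median of 0.05. Rsad2 (1.58 ± 0.23) and Ifit1 (1.72 ± 0.27) rose, and without untreated replicate 1 there were 0 lower. The lists were written with earlier results of these libraries known, so their direction is not independent evidence. The part of macrophages in the levels of MS4A genes was not tested.

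**Figure D4:**
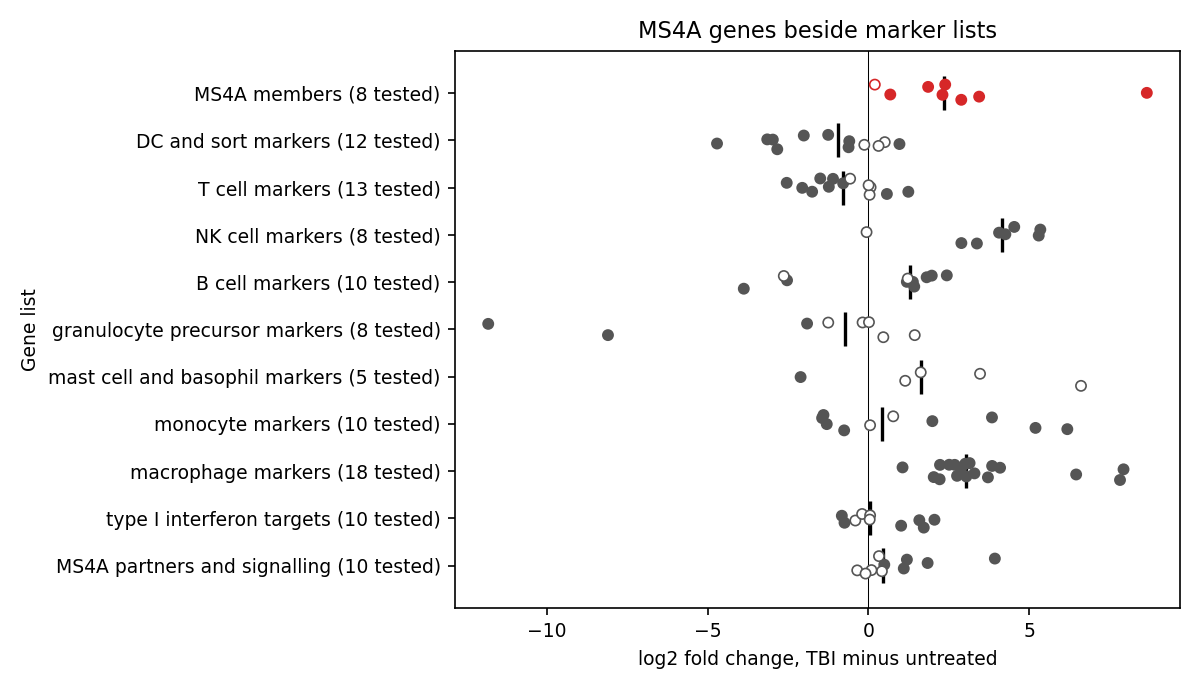
Log2 fold change (TBI minus untreated) of each tested gene in the MS4A family (red) and in 10 gene lists (grey), with a black bar at the median. Filled points passed the edgeR threshold, and vertical positions within a row are spread for legibility. MS4A members, macrophage and NK cell markers lie mostly to the right of 0, dendritic and T cell markers mostly to the left. The 2 leftmost granulocyte precursor points are Mpo and Ctsg, which had 0 counts in TBI libraries, so their fitted fold depends on a prior count.

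Tmem176a and Tmem176b, which encode relatives of the MS4A proteins found in dendritic cells, both rose. Tmem176b measured 224 and 164 CPM in untreated and 726, 656 and 595 CPM in TBI libraries (1.76 ± 0.17), and Tmem176a 125 and 92.0 CPM against 359, 316 and 273 CPM (1.54 ± 0.19). Tmem176a counts per Tmem176b count were 0.558 and 0.561 in untreated and 0.495, 0.481 and 0.459 in TBI libraries. This ratio was lower in each TBI library than in either untreated library. Ms4a10, Ms4a15 and Ms4a18 had at most 2 counts in any library. Ms4a2, the IgE receptor chain, had 16 and 0 counts in untreated libraries and 0, 0 and 20 in TBI libraries, and did not pass (-0.17 ± 1.72). Its sign rested on single libraries, with 5.76 without untreated replicate 1 and -5.96 without TBI replicate 3, neither of which passed. Mcpt8, a basophil protease, had 190 counts in untreated replicate 1 and 0 elsewhere. In TBI replicate 3 the mast cell proteases Tpsb2, Cma1, Cpa3 and Mcpt4 had 1048, 1006, 1112 and 445 counts, against at most 4, 13, 53 and 2 in any other library. Fcer1a, the IgE-binding chain, had 22 counts in TBI replicate 3 and 0 elsewhere. Of 9 mast cell and basophil markers 5 entered the fit, where 1 (Kit) was lower and 4 did not pass. Without TBI replicate 1, 3 of them were higher, and without untreated replicate 2, with DESeq2 or with the replicate block 1 was.

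Of the genes annotated within 500 kb of the cluster and outside the family, 22 were in the table and 18 entered the fit. Of these 2 were higher, 4 lower and 12 did not pass (median -0.07), where 13.3% of all tested genes were higher and 9.79% lower. The nearest gene with a rise was AW112010, a noncoding RNA gene beside Ms4a8a, with 1128 and 825 counts in untreated and 2396, 2094 and 2343 in TBI libraries (1.33 ± 0.18). Slc15a3, a peptide transporter, was the other (0.70 ± 0.21). It did not pass without a filter, with the replicate block, with upper quartile scaling or with library size alone, nor without any one library other than TBI replicate 1. The lymphocyte receptors Cd5 (-1.75 ± 0.19) and Cd6 (-1.10 ± 0.18) fell, as did A430093F15Rik between them (-1.68 ± 0.41) and Ccdc86 (-0.58 ± 0.17). A430093F15Rik and Ccdc86 lost their call without either untreated library. Ccdc86 also lost it with the replicate block and without TBI replicate 2 or 3. Within the cluster, Gm8369, which lies between Ms4a6c and Ms4a6b, had 10 and 1 counts against 21, 21 and 24 and did not pass. Differences between the cluster and its surroundings were not tested.

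**Figure D5:**
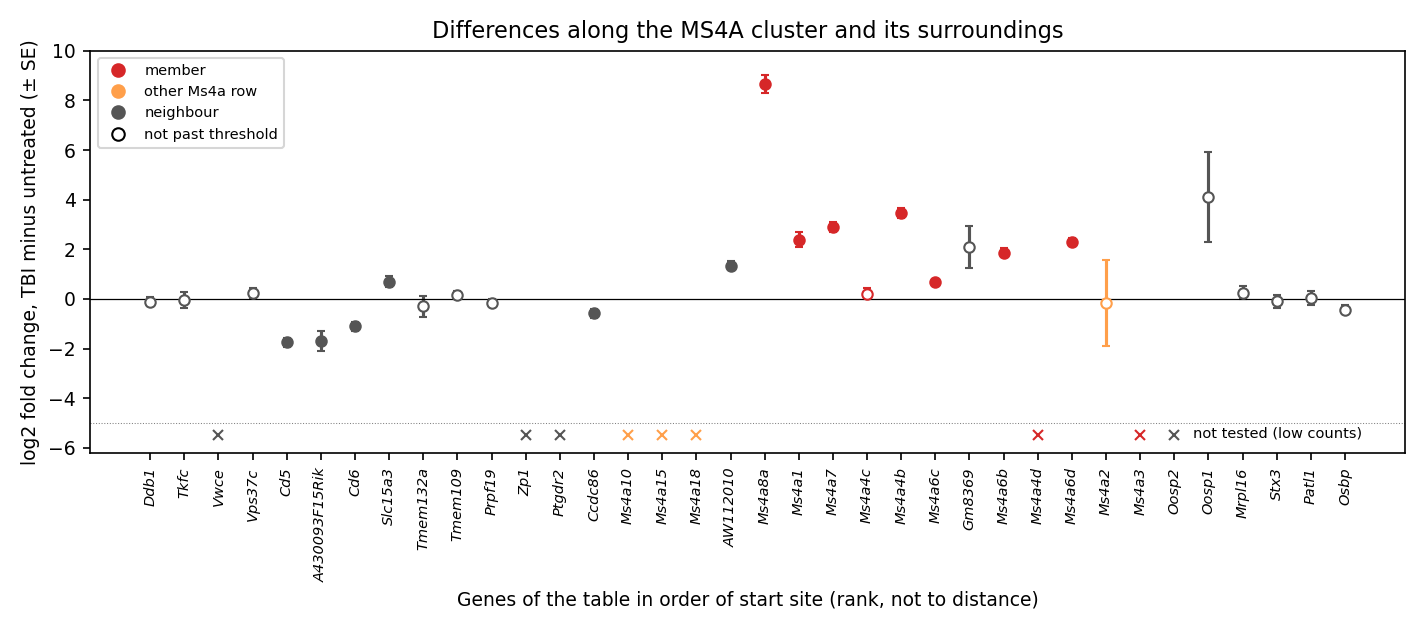
Log2 fold change (TBI minus untreated, bars are SE) of the 36 genes of the table around the MS4A cluster, ordered by start site and spaced by rank. Red points are the members, orange the other Ms4a rows and grey the neighbours. Open points did not pass the threshold and crosses mark genes with counts too low for the fit. Members in the fit stand above 0, and Ms4a4d and Ms4a3 are crosses. Most neighbours lie near 0. Farther from it are Oosp1 and Gm8369, which did not pass, and AW112010, Cd5, A430093F15Rik and Cd6, which did.

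The genes most like a member were found by the distance between log2 CPM profiles over the 5 libraries, each centred on its mean. Nearest to Ms4a7 were C1qa (distance 0.19) and C1qb (0.20), chains of complement C1q made by macrophages, then Sdc1 (0.24), Mlkl (0.25) and Cd300ld (0.26). Ms4a7 counts per C1qa count were 0.247 and 0.210 in untreated and 0.241, 0.237 and 0.220 in TBI libraries. Nearest to Ms4a8a were Retnla (0.36), a secreted product of alternatively activated macrophages, and, farther off, Lyve1 (0.63), Ecm1 (0.72), Prg4 (0.78) and Cd209g (0.79). Retnla had 291 and 238 counts in untreated and 36481, 49305 and 31222 in TBI libraries, with TBI replicate 3 lowest in its group, as for Ms4a8a. Nearest to Ms4a3 was Ctsg (1.08), followed by Slc22a12 (1.44), Rhpn1 (1.49), Ltbp2 (1.497) and Thbs4 (1.54), and these distances rest on few counts. Distances of Ms4a8a rest on 2 and 1 untreated counts, where the prior count of 2 narrows the gap between the groups. Its fitted log2 fold change was 8.66, against 7.30 for Retnla, 7.94 for Lyve1, 6.91 for Ecm1, 7.57 for Prg4 and 10.2 for Cd209g. With 2 groups, a short distance says mainly that genes shared the size of the group difference on this narrowed scale.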

How the data were processed

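RNA of the sorted cells was made into SMART-Seq v4 libraries, per the labels' protocols. STAR 2.5.2a, featureCounts 1.6.0 and the build mm10 are named in the submitters' processing notes. What was deposited is a table of raw read counts with 1 row per symbol. The annotation, strand setting, handling of multiply mapped reads and radiation dose are not given in the sources used here. The treatment note names the samples by another day, and titles and treatment tags, which give day 4, were used. The table had 0 columns of other samples.

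The test was that of edgeR 4.0.16 under R 4.3.3 (TMM, filterByExpr with a minimum count of 10 and a total of 15, quasi-likelihood F-test, Benjamini-Hochberg adjustment over 12046 genes at 0.05, group as the only term). Values in parentheses after a gene are log2 fold changes, TBI minus untreated, ± SE. Profiles used log2 CPM with a prior count of 2. The members and the 10 lists were chosen with earlier results of these data known. Named genes were the members, other family rows, in each list the 3 or fewer of lowest p, neighbours past the threshold, and the 5 nearest profiles of the member with the highest mean over the 5 libraries (Ms4a7), the largest rise and the largest fall. Others named were chosen after their values were seen, and some list genes are not reported here. Gene models were GENCODE M21 and promoters RefSeq, both GRCm38, matched by symbol. Coding sequences were aligned globally with Biopython 1.88. Floors (3 counts) and 95% exact binomial intervals cover counting error at most, since they leave out the spread between libraries. PCR reads carry no molecular identifiers, so the intervals can be too narrow even for counting error. Alternatives were other scalings, filters, DESeq2 1.42.0, limma-voom (limma 3.58.1), robust shrinkage, a replicate block and each library left out. Functions were tested on simulated data. Figures were drawn with matplotlib 3.10.9.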

Additional observations from a re-analysis of the deposited data

How the results depend on the processing

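Under 14 alternatives each, 7 of the 8 members in the fit kept their side of the threshold in all of them, and Ms4a6c lost its call when either untreated library was left out. The log2 fold change ran from 2.16 to 2.63 for Ms4a1, 3.22 to 3.67 for Ms4a4b, -0.03 to 0.47 for Ms4a4c, 1.63 to 2.08 for Ms4a6b, 0.46 to 0.71 for Ms4a6c, 2.08 to 2.45 for Ms4a6d, 2.63 to 3.21 for Ms4a7 and 8.29 to 9.17 for Ms4a8a. Without TBI replicate 1, the library that stood apart, they were 2.29, 3.36, 0.07, 1.81, 0.69, 2.29, 2.89 and 8.60. With each library left out in turn, 6 to 7 members were higher and 0 lower. Without a low-count filter 1 member was lower (Ms4a3, edgeR adjusted p = 0.0172), and Ms4a4d did not pass (0.121). Over all genes 810 to 2148 were higher and 423 to 1780 lower with a library left out, against 1599 and 1179 with all. An untreated library left out leaves 1, whose spread is then taken to equal that of the TBI libraries. Library size alone gave 2129 lower genes and moved the median log2 fold change from -0.01 to -0.23, and calls were 36.8% higher genes against 57.6%. Among neighbours outside the family, 1 in place of 2 was higher with upper quartile scaling, with library size alone, without a filter and with the replicate block, and 1 to 2 were higher and 2 to 4 lower with a library left out. Of list genes 41 to 53 were higher and 18 to 30 lower with a library left out, against 47 and 27.

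Replicate numbers are shared between groups, but no label says that they pair samples, and deviations of same-numbered libraries correlated at -0.02 and -0.01 across genes. With the replicate block 2777 genes were called in place of 2778, and members kept their calls, with 2.63 for Ms4a1, 3.43 for Ms4a4b, 0.16 for Ms4a4c and 8.79 for Ms4a8a. Ms4a2 moved to -5.77 under the block and did not pass. Single-transcript lengths, an alternative chosen after seeing the data, changed the order per kilobase as described. Depth limits Ms4a3, Ms4a4d and the untreated level of Ms4a8a, where 3 counts equal 0.370 to 0.434 CPM.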
